A study of Rattus norvegicus with 16 samples.

Results

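The Hox-cluster miR-10 family was followed in the left ventricle of rats after loss of kidney mass. Its members here are the entries rno-miR-10a-5p, rno-miR-10a-3p and rno-miR-10b-5p, chosen by name, 3 of the 317 rat miRNAs listed in all 4 weekly count tables. All rats were male Sprague Dawley animals on the same 0.4% Dyets chow, operated at 10 weeks of age. The 5/6Nx groups had the excision form of 5/6 nephrectomy, which removes most of the kidney mass, and the sham groups had sham surgery. Left ventricles were taken at 2, 4, 5 or 7 weeks, which gives 8 groups, and every group had 2 small RNA libraries (pools A and B) of 2 to 3 pooled rats. Since no label states that pools A and B were made from separate animals, p-values measure only the spread between these pools, which may be technical. The series title names cardiorenal syndrome type 4, in which chronic kidney disease leads to disease of the heart. Strain, sex, diet and age at surgery were shared by all groups, so rats taken later were older, and age and time after surgery cannot be told apart.

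A miRNA is cut from both arms of an RNA hairpin, and the arm that is loaded into the silencing complex usually becomes far more abundant than the other. The miR-10 genes lie inside the Hox clusters, the gene clusters that set position along the body axis, and are among the oldest animal miRNAs. In blood vessels miR-10a is known from human endothelial cells as a brake on NF-kB signalling, and Hox messages are known targets of the family.

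In the RefSeq gene table for rat (GRCr8), with protein-coding genes ordered by start position, Mir10a comes after Hoxb5 and before Hoxb4. Mir10b comes after Hoxd4 and before Hoxd3 in this order. Gene ends were not compared, so either miRNA gene may lie inside the span of a neighbour. The Mir10a hairpin lies at chr10:81779709-81779818 on the plus strand of GRCr8. It is shown because both of its arms are measured here, with the 5p arm as the first stretch of capitals and the 3p arm as the second.
Mir10a hairpin: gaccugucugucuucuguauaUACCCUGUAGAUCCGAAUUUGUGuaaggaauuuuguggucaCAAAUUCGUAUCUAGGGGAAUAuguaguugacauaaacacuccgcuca
The mature sequences, also from RefSeq, follow with the seed (bases 2 to 8), which does most of the target pairing, in capitals.
miR-10a-5p: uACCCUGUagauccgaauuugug
miR-10a-3p: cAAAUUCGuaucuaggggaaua
miR-10b-5p: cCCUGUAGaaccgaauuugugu
miR-99b-5p: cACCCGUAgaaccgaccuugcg
miR-100-5p: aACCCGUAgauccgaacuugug
The miR-10a-5p seed was held at these positions by 1 of 693 rat mature miRNAs in the table, miR-10a-5p itself. RefSeq starts miR-10b-5p 2 bases further along than miR-10a-5p, which shifts its seed. In the Mir10b hairpin the stretch aligned with the 23 bases of miR-10a-5p differed by 1 substitution, U12A, counted from the 5′ end of miR-10a-5p. Reads of the 2 miRNAs are therefore nearly identical. How the authors shared reads that match both is not given in the sources used here. miR-99b-5p and miR-100-5p, members of the related miR-99/100 family, share a seed that differs from that of miR-10a-5p.

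The 317 rat miRNAs took 3509549 counts in the deepest library, week 4 5/6Nx pool A, and 672057 in the shallowest, week 7 sham pool B. Levels are given in CPM, counts per 1000000 after TMM scaling, as mean ± SD over 2 pools where a mean is given. A change is the log2 ratio of 5/6Nx to sham, ± its SE, from the quasi-likelihood test of edgeR on the 306 miRNAs that passed a filter on low counts. The threshold was a Benjamini-Hochberg adjusted p under 0.05. The cardiomyocyte markers miR-1-3p, miR-133a-3p, miR-208a-3p and miR-499-5p were each read at least 289 times in every library. Pools A and B of week 5 sham stood apart from each other: the summed level of the endothelial markers miR-126a-3p and miR-126a-5p was 56618 CPM in pool A and 16732 CPM in pool B. Changes at week 5 are therefore also given without each of these pools.

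miR-10a-5p was an abundant miRNA of the left ventricle and its level differed between weeks. Between 1.62% and 3.65% of all rat miRNA counts fell on it, and it ranked between place 8 and place 15 of 317 in every library. The depth behind it was 22889 to 98628 reads per library, so that the exact (Clopper-Pearson) 95% interval of the highest share, in week 7 sham pool A, ran from 3.61% to 3.69%. Without molecular identifiers, such intervals cover counting error alone. After 5/6Nx, the pools had 16707 and 16341 CPM at week 2, 28639 and 22559 CPM at week 4, 20727 and 19942 CPM at week 5, and 24458 and 32293 CPM at week 7. In sham hearts they had 14800 and 16481 CPM at week 2, 26943 and 21565 CPM at week 4, 32448 and 28581 CPM at week 5, and 46541 and 38063 CPM at week 7. On this TMM scale, both week 2 pools of sham hearts thus lay below all later sham pools, and both week 7 pools above all earlier ones. As plain shares of rat miRNA counts, the week 7 sham pools (3.65% and 3.41%) overlapped with those of week 5 sham (3.58% and 2.84%). After 5/6Nx week 2 was again lowest, while the pools of weeks 4 and 7 overlapped. In such pooled tissue, fewer cells of a type and less RNA per cell cannot be told apart.

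**Figure D1:**
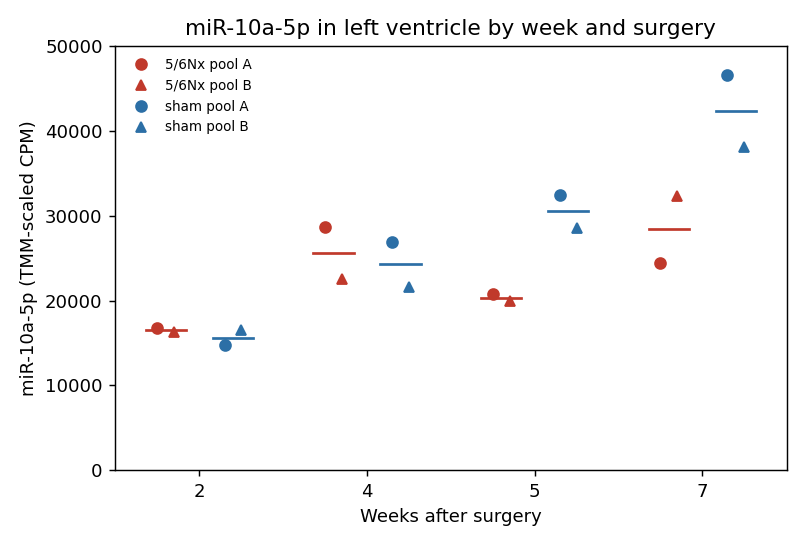
Level of miR-10a-5p in TMM-scaled CPM (y axis) in each library by weeks after surgery (x axis), with pool A as circles, pool B as triangles and a line at the mean of the 2 pools. The sham pools are highest at week 7, with 46541 and 38063 CPM, and the 5/6Nx pools lie below the sham pools at weeks 5 and 7.

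From week 2 to week 7 the mean TMM-scaled level of miR-10a-5p was 1.72-fold higher after 5/6Nx and 2.70-fold higher in sham hearts. As plain shares of rat miRNA counts the rise was smaller. After 5/6Nx the pools had 1.94% and 1.85% at week 2 and 2.27% and 2.75% at week 7. In sham hearts they had 1.62% and 1.85% at week 2 and 3.65% and 3.41% at week 7. Differences between weeks passed the test with 3 degrees of freedom after 5/6Nx (edgeR adjusted p = 0.0122) and among sham groups (adjusted p = 0.000347). Differences between weeks were common, with 38.6% of the 306 miRNAs passing this test after 5/6Nx and 31.4% among sham groups. Each week has its own count table, so that age, time after surgery and any difference between the tables cannot be told apart. The week 7 table lists fewer entries than the others. In a fit without the week 7 libraries, the test over weeks 2, 4 and 5 gave an adjusted p = 0.0808 after 5/6Nx and 0.0171 among sham groups. With library sizes left unscaled the test among 5/6Nx groups did not pass either (adjusted p = 0.0714).

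Ordered by mean level, the groups ran as week 2 sham (15640 ± 1189 CPM), week 2 5/6Nx (16524 ± 259 CPM), week 5 5/6Nx (20335 ± 555 CPM) and week 4 sham (24254 ± 3803 CPM). Above them came week 4 5/6Nx (25599 ± 4300 CPM), week 7 5/6Nx (28375 ± 5540 CPM), week 5 sham (30514 ± 2735 CPM) and week 7 sham (42302 ± 5995 CPM). The pools of neighbours in this order overlapped, except between week 2 and week 5 5/6Nx, between week 5 5/6Nx and week 4 sham, and between the 2 highest groups. In plain shares of rat miRNA counts, the last 2 of these gaps were absent. Week 5 5/6Nx had 2.09% and 2.10% against 2.55% and 2.08% in week 4 sham. Week 5 sham had 3.58% and 2.84% against 3.65% and 3.41% in week 7 sham.

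At 2 and 4 weeks, the level of miR-10a-5p after 5/6Nx was close to that in sham hearts and the pools of the groups overlapped. The log2 change was 0.08 ± 0.18 at week 2 (edgeR adjusted p = 0.823) and 0.08 ± 0.18 at week 4 (adjusted p = 0.956). The sign of these small changes turned when single libraries were left out, and at week 2 also with scaling over all entries of the tables. In these weeks 0.654% and 0.654% of the 306 miRNAs passed the test.

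At 5 and 7 weeks both 5/6Nx pools had less miR-10a-5p than both sham pools, and neither difference passed the test. The mean level after 5/6Nx was 0.666 of that in sham hearts at week 5 (log2 -0.59 ± 0.18, edgeR adjusted p = 0.171, unadjusted p = 0.00505). At week 7 it was 0.671 of that in sham hearts (log2 -0.58 ± 0.18, adjusted p = 0.0669, unadjusted p = 0.00562). In edgeR, 0% of the 306 miRNAs passed at week 5 (8.82% had an unadjusted p under 0.05, while 6 passed in DESeq2 and 0 in limma-voom) and 4.25% at week 7 (19.9% had an unadjusted p under 0.05). Both 5/6Nx pools lay below both sham pools for 13.4% of the miRNAs at week 5, for 27.8% at week 7 and for 5.88% at both weeks. With DESeq2, the difference passed at week 5 (log2 -0.62, adjusted p = 0.0486) and at week 7 (log2 -0.53, adjusted p = 0.0477, where 23 miRNAs passed).

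Either pool of week 5 sham decided the call of miR-10a-5p in edgeR. Without pool A of that group the adjusted p was 0.0397 at week 5 and 0.0154 at week 7, and without pool B it was 0.00635 and 0.0201. Calls grew among all 306 miRNAs in these fits: without pool A 4.25% passed at week 5 and 14.4% at week 7, and without pool B 20.6% and 16%, where 0% and 4.25% passed with all libraries. The log2 changes without pool A and without pool B were -0.62 and -0.79 at week 5, and -0.54 and -0.59 at week 7. In the authors' deposited table the log2 change was -0.60 at week 5 (their DESeq p = 0.237) and -0.54 at week 7 (p = 0.0601), and neither passed after adjustment.

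Averaged over the 4 weeks, the log2 change of miR-10a-5p was -0.25 ± 0.09 (edgeR adjusted p = 0.0977), a test that 5.56% of miRNAs passed (22.2% had an unadjusted p under 0.05). The test of whether the effect of surgery differed between weeks gave an adjusted p = 0.180 (unadjusted p = 0.0182), and 1.63% of miRNAs passed it (an unadjusted p under 0.05 was reached by 19.9%). The adjusted p-values of both tests were 0.0262 and 0.0225 when pool A of week 5 sham was left out, and 0.0170 and 0.0140 when pool B was. Of all miRNAs, 16.3% and 18.6% then passed these tests without pool A, and 22.2% and 24.5% without pool B. DESeq2 gave an adjusted p = 0.0247 for the difference between weeks, which 27 miRNAs passed.

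Summed levels of cell type markers at weeks 5 and 7 overlapped between 5/6Nx and sham for some cell types and not for others, and the sums were not tested. With 2 pools a group such gaps are common. Both 5/6Nx pools lay below both sham pools for 13.4% of the 306 single miRNAs at week 5 and for 27.8% at week 7. The share with both 5/6Nx pools above is not given here. By mean level the endothelial sum was mostly miR-126a-5p, the cardiomyocyte sum mostly miR-133a-3p and the fibroblast sum mostly miR-199a-3p. The leukocyte sum was mostly miR-150-5p and the erythroid sum mostly miR-451-5p. The endothelial sum (2 of 2 markers measured) ranged from 21181 to 23556 CPM after 5/6Nx against 16732 to 56618 CPM in sham at week 5, and from 38882 to 40022 CPM after 5/6Nx against 39202 to 50234 CPM in sham at week 7. The cardiomyocyte sum (4 of 4 markers) ranged from 59966 to 69010 CPM after 5/6Nx against 58931 to 59873 CPM in sham at week 5. At week 7 it ranged from 50884 to 53282 CPM after 5/6Nx against 62506 to 67947 CPM in sham. The sum of the fibroblast markers miR-199a-3p and miR-214-3p (2 of 2) was 2362 to 2510 CPM after 5/6Nx against 1819 to 1980 CPM in sham at week 5, and 2600 to 2663 CPM after 5/6Nx against 2045 to 2094 CPM in sham at week 7. The smooth muscle sum (2 of 2, mostly miR-143-3p) ranged from 193831 to 224574 CPM after 5/6Nx against 82785 to 259418 CPM in sham at week 5, and overlapped at week 7 as well. The leukocyte sum (4 of 4) was 1873 to 2039 CPM after 5/6Nx against 1420 to 1955 CPM in sham at week 5, and 1002 to 1152 CPM after 5/6Nx against 1206 to 1305 CPM in sham at week 7. The erythroid sum (2 of 2) overlapped between the groups at both weeks. The sum of the markers of other organs (2 of 3, mostly miR-192-5p) was lower after 5/6Nx at both weeks, with 1980 to 2025 CPM against 2315 to 2415 CPM in sham at week 5 and 2368 to 2414 CPM after 5/6Nx against 2837 to 2916 CPM in sham at week 7. None of the measured markers was at 0 in any library, and the part of these shifts in the values of miR-10a-5p was not tested.

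miR-10a-3p, the other arm of the same hairpin, was read only 0 to 17 times per library. After 5/6Nx, pools A and B held 6 and 3 counts in week 2, 14 and 13 counts in week 4, 4 and 7 counts in week 5, and 1 and 0 counts in week 7. In sham hearts they held 3 and 13 counts in week 2, 8 and 11 counts in week 4, 17 and 6 counts in week 5, and 4 and 5 counts in week 7. The week 7 5/6Nx pools were the lowest of all, although their libraries were deeper than those of week 7 sham. On the CPM scale both 5/6Nx pools lay below both sham pools at weeks 5 and 7 and overlapped with them at weeks 2 and 4. Of the 306 miRNAs, 13.4% were separated in this way at week 5, 27.8% at week 7 and 5.88% at both weeks.

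Summed over pools and scaled to library size, the level of miR-10a-3p after 5/6Nx was 0.847 of that in sham hearts at week 2 (9 counts after 5/6Nx and 16 in sham, exact 95% interval 0.33 to 2.04), and 0.958 at week 4 (27 counts after 5/6Nx and 19 in sham, 0.513 to 1.82). It was 0.416 at week 5 (11 counts after 5/6Nx and 23 in sham, 0.183 to 0.889) and 0.0600 at week 7 (1 count after 5/6Nx and 9 in sham, 0.00137 to 0.433). These intervals cover counting error and not the spread between pools. In edgeR the week 5 difference had an adjusted p = 0.497 and the week 7 difference an adjusted p = 0.0603 (unadjusted p = 0.00414). The week 7 difference passed in limma-voom (adjusted p = 0.0157, with 17 miRNAs passing) and in edgeR when pool A (adjusted p = 0.0300) or pool B (0.0255) of week 5 sham was left out. The week 5 difference rested on these pools as well. The log2 change was -1.23 ± 0.58 with all libraries, -0.50 ± 0.76 without pool A (adjusted p = 0.759) and -1.85 ± 0.58 without pool B (adjusted p = 0.0344). In the fit without pool B 20.6% of all miRNAs passed at week 5.

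For the mean over the 4 weeks, miR-10a-3p had an adjusted p = 0.0556 in edgeR. It passed without week 2 sham pool A (adjusted p = 0.0431), week 2 5/6Nx pool A (0.0429) or week 5 sham pool B (0.00831), with no filter on low counts (0.0492) and in limma-voom (0.0445). In these fits 15, 18, 68, 24 and 19 miRNAs passed, against 17 with all libraries in edgeR. The interaction of surgery and week did not pass (adjusted p = 0.236), but did so without week 5 sham pool B (adjusted p = 0.0492, where 24.5% of miRNAs passed). Without pool A its adjusted p was 0.139. Between weeks, miR-10a-3p differed after 5/6Nx (edgeR adjusted p = 0.0469), in a test that 38.6% of all 306 miRNAs passed. Among sham groups the test gave an adjusted p = 0.607, and 31.4% of miRNAs passed it. The call after 5/6Nx was lost without either pool of week 4 sham, week 4 5/6Nx, week 5 5/6Nx, week 7 sham or week 7 5/6Nx, with adjusted p-values of 0.0538 to 0.141. It was also lost without the whole of week 7 (0.204), with the replicate block (0.119), with DESeq2 (0.0551), with its size factors (0.0507) and with scaling over all entries (0.0537).

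In each library with a read of the 3p arm there were 3974 to 36972 reads of the 5p arm for each of them. After 5/6Nx there were 2.50 and 0.968 reads of the 3p arm per 10000 reads of the 5p arm in week 2 pools, 1.42 and 2.32 in week 4 pools, 0.678 and 0.963 in week 5 pools, and 0.270 and 0 in week 7 pools. In sham hearts there were 1.07 and 2.52 in week 2 pools, 1.96 and 2.06 in week 4 pools, 1.78 and 0.773 in week 5 pools, and 1.02 and 2.18 in week 7 pools. The groups overlapped at weeks 2, 4 and 5, and both 5/6Nx pools lay below both sham pools at week 7. With both pools summed, the 3p arm took 13.4 per 1000000 reads of both arms in week 7 5/6Nx hearts (exact Clopper-Pearson 95% interval 0.340 to 74.8) and 145 per 1000000 in week 7 sham hearts (66.3 to 275). The ratio of these shares was 0.0925 (0.00211 to 0.668, counting error only).

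Over the 4 weeks, the log2 ratio of 5p to 3p counts (with a pseudocount of 0.5) was 0.88 higher after 5/6Nx than in sham hearts. An exact permutation test, two-sided, with surgery labels exchanged within each week gave p = 0.0849 over 1296 arrangements, where the smallest possible p is 0.00154. The weekly differences, which with 2 pools a group allow no test under 0.05, were 0.05, 0.17, 0.48 and 2.84 at weeks 2, 4, 5 and 7. Without the week 7 libraries the difference was 0.23 (exact permutation p = 0.491). The difference over 4 weeks passed when week 2 5/6Nx pool A (1.04, exact permutation p = 0.0370), week 4 5/6Nx pool B (0.97, p = 0.0463) or week 5 sham pool B (1.03, p = 0.0463) was left out.

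**Figure D2:**
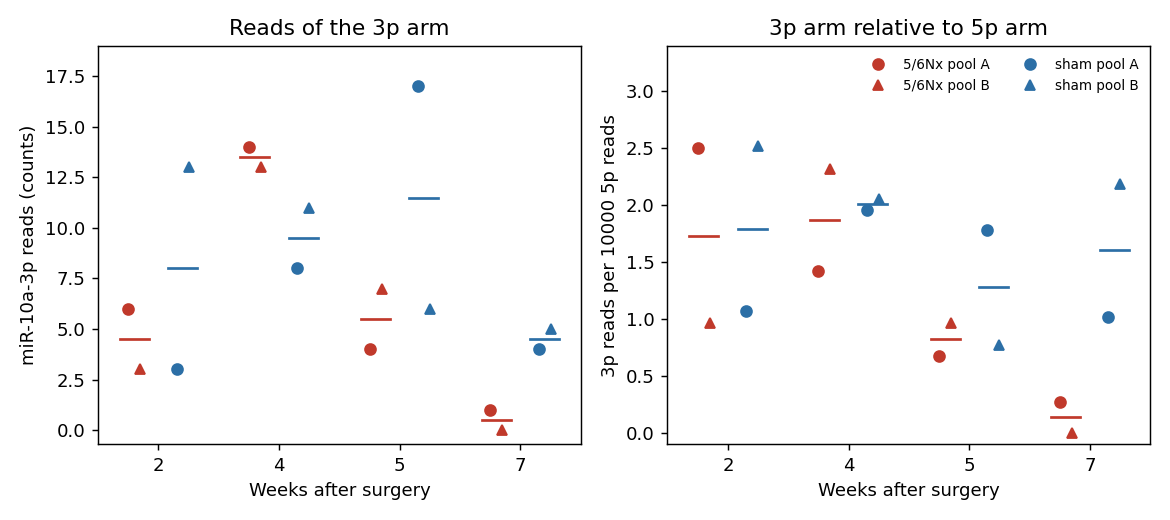
Reads of miR-10a-3p in counts (left) and miR-10a-3p reads per 10000 miR-10a-5p reads (right) in each library by weeks after surgery, with pool A as circles, pool B as triangles and a line at the mean of 2 pools. The week 7 5/6Nx pools, with 1 and 0 counts, are the lowest in both panels.

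The tables also hold an entry named for miR-10-3p of Drosophila and other insects, whose counts were well above those of the rat 3p arm. It had 88.4 and 90.2 CPM after 5/6Nx at week 2, 85.7 and 71.7 CPM at week 4, 92.4 and 106 CPM at week 5, and 68.8 and 95.4 CPM at week 7. In sham hearts it had 94.9 and 119 CPM at week 2, 119 and 88.3 CPM at week 4, 106 and 188 CPM at week 5, and 119 and 153 CPM at week 7. Both 5/6Nx pools lay below both sham pools at weeks 2, 4 and 7, and overlapped with them at week 5. Both 5/6Nx pools lay below both sham pools for 30.1% of the 306 miRNAs at week 2 and for 28.4% at week 4. Which reads stand in this entry was not tested, and it was left out of the library sizes. With its reads added to those of miR-10a-3p, the log2 ratio of the 5p arm to the sum was 0.23 higher after 5/6Nx than in sham hearts (exact permutation p = 0.130), and the weekly differences were 0.32, 0.44, -0.05 and 0.21 at weeks 2, 4, 5 and 7. With this entry added, the largest weekly difference thus stood at week 4. The 5/6Nx and sham pools then did not overlap at weeks 2 and 4 and overlapped at weeks 5 and 7.

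miR-10b-5p, from the HoxD cluster, was read 2 to 10 times per library and did not pass the filter on low counts. After 5/6Nx its counts were 2 and 3 in week 2, 9 and 5 in week 4, 6 and 3 in week 5, and 4 and 4 in week 7. In sham hearts they were 2 and 10 in week 2, 3 and 8 in week 4, 7 and 7 in week 5, and 2 and 6 in week 7. The groups overlapped in CPM in all weeks but week 5, where both 5/6Nx pools (2.11 and 0.823 CPM) lay below both sham pools (2.38 and 2.58 CPM). Of the 306 tested miRNAs, 13.4% were separated in this way at week 5. Scaled to library size, the summed level after 5/6Nx was between 0.540 of that in sham (week 7, exact 95% interval 0.177 to 1.65) and 0.858 (week 4, 0.362 to 2.09), and all 4 intervals included 1. In an edgeR fit of 317 miRNAs with no filter, the log2 change over the 4 weeks was -0.63 ± 0.35 (adjusted p = 0.324). Since its sequence is nearly that of miR-10a-5p, which had far more reads, this entry is uncertain. Whether reads of miR-10b also stand in the miR-10a-5p entry was not tested.

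Of the related miRNAs (miR-99a, miR-99b and miR-100, miR-10b and the Hox-cluster miRNAs miR-196a, miR-196b, miR-196c and miR-615), 7 entries are in the tables analysed here and 5 were tested: both arms of miR-99a and miR-99b and the 5p arm of miR-100. None of the 5 passed for surgery in any week, in either direction, in edgeR. Their median log2 change was 0.07 at week 2, -0.19 at week 4, -0.41 at week 5 and -0.09 at week 7, beside medians over all 306 miRNAs of 0.03, -0.08, 0.05 and -0.04. In this list, 1, 4, 3 and 3 of the 5 had values below sham at weeks 2, 4, 5 and 7, as had 48.7%, 61.1%, 44.4% and 54.2% of all 306 miRNAs. Without week 5 sham pool B, 3 of the 5 passed at week 5, where 20.6% of all miRNAs did, and without pool A none did. The remaining entry, miR-100-3p, had 4 to 22 counts per library in weeks 2 to 5 and is not in the week 7 table analysed here.

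At week 5, where miR-10a-5p lay below sham in both pools, the related 5p arms were split by the sham pools. miR-99a-5p had 641 and 716 CPM after 5/6Nx against 2143 and 446 CPM in sham pools A and B (log2 -0.93 ± 0.44, edgeR adjusted p = 0.497). miR-99b-5p had 2174 and 2064 CPM after 5/6Nx against 5824 and 1474 CPM in sham (-0.78 ± 0.40, adjusted p = 0.502). miR-100-5p had 1142 and 1228 CPM after 5/6Nx against 2295 and 855 CPM in sham (-0.41 ± 0.31, adjusted p = 0.652). In each case sham pool A lay above and sham pool B below both 5/6Nx pools. The direction of these changes turned with the pool left out. Without sham pool A the week 5 log2 changes were 0.47 for miR-99a-5p, 0.39 for miR-99b-5p and 0.34 for miR-100-5p, and none passed (edgeR adjusted p = 0.183, 0.286 and 0.303). Without sham pool B they were -1.78, -1.57 and -1.07, and all 3 passed (adjusted p = 6.16e-06, 2.48e-05 and 0.000383). The level of miR-10a-5p differed less between those sham pools, with 32448 and 28581 CPM, and its week 5 change stayed below 0 without either.

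**Figure D3:**
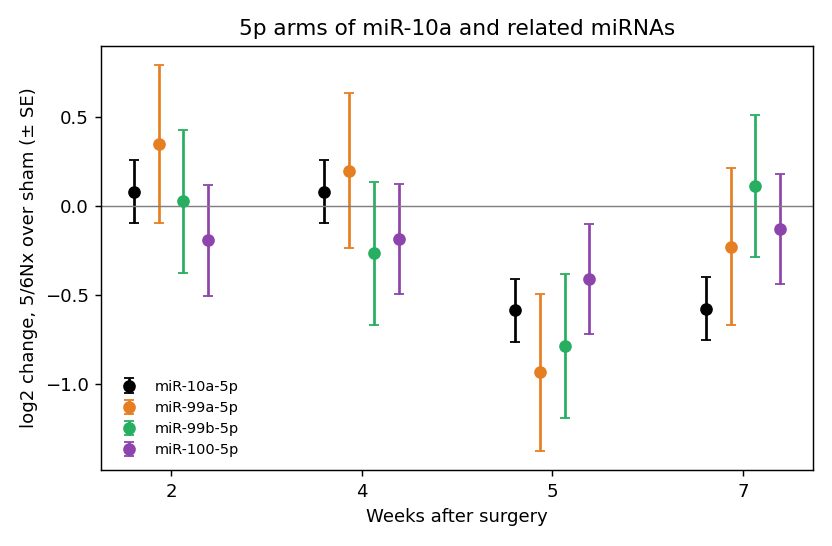
Log2 change of 5/6Nx over sham with its SE from edgeR (y axis) for miR-10a-5p, miR-99a-5p, miR-99b-5p and miR-100-5p at each week after surgery (x axis). miR-10a-5p lies at -0.59 and -0.58 at weeks 5 and 7, and no point passed the adjusted threshold.

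At week 7 the fitted changes of the related 5p arms were smaller than the -0.58 of miR-10a-5p. miR-99a-5p had 1604 and 1505 CPM after 5/6Nx against 1871 and 1776 CPM in sham (log2 -0.23 ± 0.44), and miR-100-5p had 2461 and 2458 CPM after 5/6Nx against 2800 and 2579 CPM in sham (-0.13 ± 0.31). miR-99b-5p had 5668 and 6628 CPM after 5/6Nx against 5764 and 5624 CPM in sham (0.11 ± 0.40). The difference between miRNAs was not tested. Between weeks, miR-99b-5p and miR-100-5p passed the edgeR test both after 5/6Nx (adjusted p = 0.00621 and 0.00359) and among sham groups (0.0153 and 0.00577). miR-99a-5p passed after 5/6Nx (0.0484) and had an adjusted p = 0.0570 among sham groups. Of all 306 miRNAs, 38.6% passed this test after 5/6Nx and 31.4% among sham groups.

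**Figure D4:**
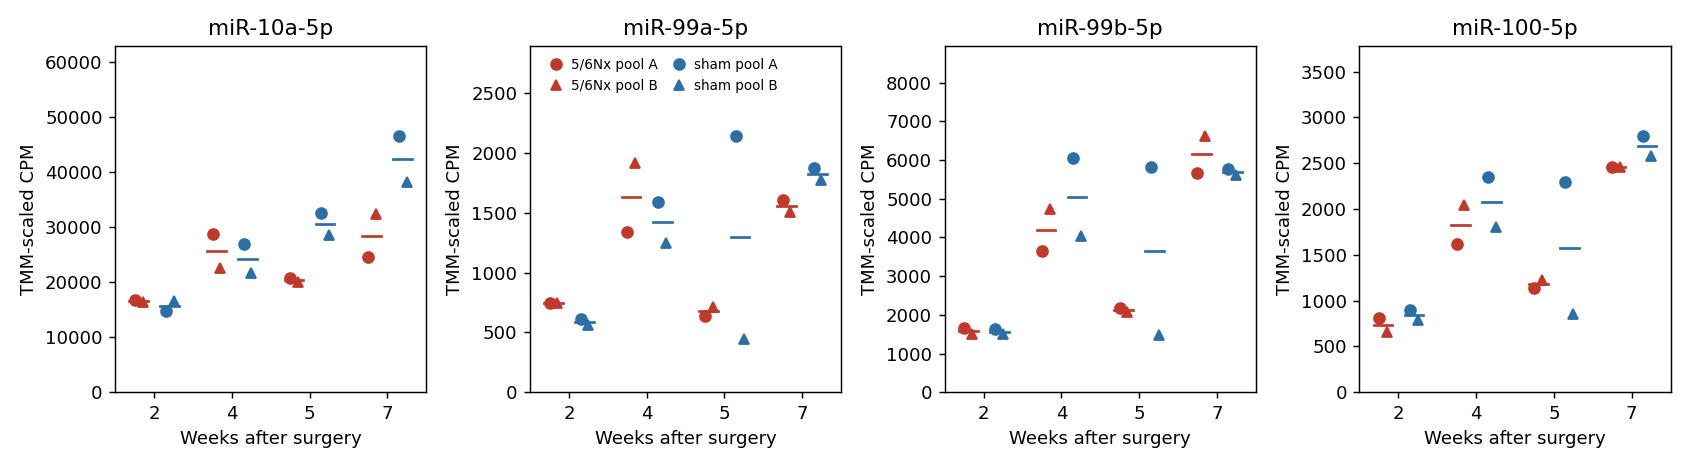
Level in TMM-scaled CPM (y axes, each from 0) of miR-10a-5p, miR-99a-5p, miR-99b-5p and miR-100-5p in each library by weeks after surgery, with pool A as circles, pool B as triangles and a line at the mean of 2 pools. The week 5 sham pools lie far apart for miR-99a-5p (2143 and 446 CPM), miR-99b-5p and miR-100-5p, and closer together for miR-10a-5p (32448 and 28581 CPM).

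The miRNAs whose log2 CPM followed miR-10a-5p most closely over the 16 libraries were miR-183-5p (Pearson r = 0.879), miR-3553 (0.872), miR-146a-5p (0.857), miR-30d-5p (0.847) and miR-192-5p (0.825). Without the week 7 libraries these correlations were 0.868, 0.858, 0.859, 0.701 and 0.644 over 12 libraries. They are given as a description, since libraries of a week share their time point and scaling. miR-183-5p and miR-3553 were read only 2 to 75 times per library and had nearly the same counts in each, so both may hold the same reads. miR-146a-5p, an inhibitor of NF-kB signalling, had 845 and 925 CPM after 5/6Nx against 2301 and 1233 CPM in sham at week 5 (log2 -0.998 ± 0.232, edgeR adjusted p = 0.0694). Without sham pool A the week 5 change of miR-146a-5p was -0.61 (adjusted p = 0.0471, with 4.25% of miRNAs passing), and without pool B it was -1.49 (adjusted p = 1.1e-05, with 20.6% passing). At week 7 it had 2661 and 2963 CPM after 5/6Nx against 2663 and 2780 CPM in sham (0.05 ± 0.23, adjusted p = 0.932). The week 5 log2 changes of the others were -0.97 for miR-183-5p, -0.99 for miR-3553, -0.07 for miR-30d-5p and -0.23 for miR-192-5p. None of these passed (edgeR adjusted p = 0.497, 0.502, 0.847 and 0.546). Since all were picked by correlation in the same libraries, no shared change is read from them. For miR-10a-3p the highest correlation was 0.769, with miR-181d-5p, and it was 0.455 without week 7. With at most 17 counts per library no likeness is read from the 3p arm.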

How the data were processed

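Per the labels' protocols, Trizol RNA went into TruSeq small RNA libraries that were read on an Illumina HiSeq. Tools named by the submitters' processing notes are cutadapt, Bowtie and DESeq. Their settings, the build and the annotation were not given in the sources used here. The deposited tables hold raw counts per library, not normalized by the authors, and, per the file headers, the authors' DESeq p-values and log2 fold changes. A further table of reads and mapping rates was not used, since its pool numbers could not be matched to samples.

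The members and lists were chosen with earlier results of these data known. edgeR 4.0.16 (R 4.3.3) was fitted to all 16 libraries with a mean for each of 8 groups, TMM scaling and filterByExpr (minimum count 10), which kept 306 of the 317 rat miRNAs found in all 4 tables. Entries of other species and loci, which can repeat reads, were left out of library sizes. The SE is the log2 change over the root of F. Tests are two-sided. The common dispersion was 0.0271. The arm ratio without pseudocount was undefined in 1 library with 0 counts of miR-10a-3p, so 0.5 was added to both arms. This, adding the insect entry to the 3p arm, and the changes of single related or correlated miRNAs without each week 5 sham pool were chosen after seeing the data. log2 CPM for correlations used a prior count of 2. Named are the members, the related list, entries of other species called miR-10, and the 5 miRNAs most correlated with miR-10a-5p (for miR-10a-3p only the first is printed). No entry kept a ratio to miR-10a-5p fixed within 10% over all libraries. The scripts were tested on simulated data. Alternatives were DESeq2 1.42.0, limma-voom (limma 3.58.1), other scalings and filters, separate fits, a replicate block and leaving out each library. The count tables name the pools by letter. Deviations of pools with the same letter correlated at -0.18 to 0.10 across miRNAs within weeks, so the letters were not taken to pair pools.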

Additional observations from a re-analysis of the deposited data

How the results depend on the processing

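Depth limited the 3p arm and miR-10b-5p, with at most 17 and 10 counts per library, and the 2 pools per group limited all tests of surgery. With scaling over all entries the week 2 change of miR-10a-5p turned to -0.022. That of miR-10a-3p at week 4 turned to 0.019 with DESeq2 size factors, 0.021 in DESeq2, 0.033 with unscaled library sizes, 0.034 in a separate fit of the week and 0.040 with scaling over all entries. Scaling over all entries also moved the median change of all miRNAs, to -0.08 from 0.03 at week 2 and to 0.03 from -0.08 at week 4. The cause was not tested. miR-10a-5p passed at week 5 in DESeq2 (-0.62), at week 7 in DESeq2 and in a separate fit of the week (-0.53 in both), and for the interaction in DESeq2 (adjusted p = 0.0247). Its call between weeks after 5/6Nx was lost with unscaled library sizes (0.0714) and without week 7 (0.0808, fewer samples). miR-10a-3p passed at week 7 in limma-voom (-3.38) and for the mean over weeks in limma-voom (-1.17) and without the filter (-1.33). No DESeq2 value is listed here for it at weeks 2 and 7, for the mean, the interaction or between sham weeks, and the reason was not examined. Separate fits of weeks 2, 5 and 7 gave no value for it either. Its call between weeks after 5/6Nx was lost with DESeq2 size factors (0.0507), scaling over all entries (0.0537), in DESeq2 (0.0551) and without week 7 (0.204).

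With the pool letter as a replicate block within each week, miR-10a-3p after 5/6Nx lost its call between weeks (adjusted p = 0.119), and no other call of miR-10a-5p or miR-10a-3p changed. The letters share only a name, and the block moved the miRNAs passing for the mean over weeks to 8, against 17.

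Leaving out 1 library at a time gave log2 changes of miR-10a-5p of -0.034 to 0.16, -0.065 to 0.29, -0.79 to -0.56 and -0.69 to -0.36 at weeks 2, 4, 5 and 7 and -0.30 to -0.20 for their mean. For miR-10a-3p they were -1.01 to 0.76, -0.19 to 0.17, -1.85 to -0.50, -6.81 to -3.05 and -2.09 to -1.10. Adjusted p-values of the interaction were 0.0140 to 0.313 for miR-10a-5p and 0.0492 to 0.420 for miR-10a-3p, and those between 5/6Nx weeks were 0.000189 to 0.0259 and 0.0166 to 0.141. The arm ratio ranged from 0.68 to 1.09. Over all alternatives the miRNAs passing numbered 0 to 56 at week 2 (2 as reported), 0 to 16 at week 4 (2), 0 to 63 at week 5 (0), 5 to 49 at week 7 (13), 8 to 68 for the mean (17) and 1 to 75 for the interaction (5). Between weeks they numbered 15 to 169 after 5/6Nx (118) and 28 to 161 among sham groups (96), and for the 5 related miRNAs 0 to 4 after 5/6Nx (4) and 0 to 4 among sham groups (2).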

Other observations

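The balance of the arms was also measured in the related hairpins. The ratio of 5p to 3p counts of miR-99a was 9.28 and 11.3 after 5/6Nx against 8.87 and 8.04 in sham at week 2, 19.5 and 24.9 after 5/6Nx against 18.01 and 14.99 in sham at week 4, and 37.3 and 36.5 after 5/6Nx against 41.4 and 39.6 in sham at week 7. At week 5 it was 8.32 and 9.71 after 5/6Nx, against 40.1 in sham pool A and 4.98 in sham pool B. For miR-99b the ratio was 70.6 and 56.2 after 5/6Nx against 78.5 and 57.5 in sham at week 2, and 199 and 222 after 5/6Nx against 278 and 188 in sham at week 4. At week 5 it was 84.8 and 87.5 after 5/6Nx, against 255 in sham pool A and 67.8 in sham pool B. At week 7 it was 238 and 266 after 5/6Nx against 347 and 423 in sham, so that both 5/6Nx pools lay below both sham pools. The 3p arm of miR-99b then had 36 and 29 counts after 5/6Nx and 14 and 8 in sham. For miR-99a both 5/6Nx pools lay below both sham pools at week 7 and above them at weeks 2 and 4. The 5p to 3p ratio of miR-10a was higher after 5/6Nx at week 7, from 1 and 0 counts of its 3p arm. How often ratios are separated in this way was not counted. Sham pool A of week 5 had ratios within the range of the week 7 libraries for both hairpins. That range was 36.5 to 41.4 for miR-99a and 238 to 423 for miR-99b. Its ratio lay above the week 4 range for miR-99a (14.99 to 24.9) and within it for miR-99b (188 to 278). Sham pool B lay below all other libraries for miR-99a and within the week 2 range for miR-99b (56.2 to 78.5). These are values without a test.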
